A study of Mus musculus with 20 samples.

Results

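Interferon-stimulated genes were followed in the mouse hippocampus after human small RNAs (sRNAs) had been infused into it. They were taken by name as 44 genes out of the 25190 with a row in the count table, and each had exactly 1 row. The genes fell into 9 groups by role: signalling factors (Stat2, Irf9 and Irf7), the IFIT family (Ifit1, Ifit2, Ifit3 and Ifit3b), the ISG15 system (Isg15, Usp18 and Herc6), the OAS family (Oas1a, Oas2, Oas3 and Oasl2), other antiviral effectors (Mx1, Mx2, Rsad2, Cmpk2, Bst2, Zbp1, Ddx60, Rtp4, Xaf1 and Samd9l), GTPases (Gbp2, Gbp3, Gbp7, Igtp, Irgm1, Irgm2 and Iigp1), IFI genes (Ifi27, Ifi35, Ifi44, Ifi203 and Ifi204), the Parp9, Parp14 and Dtx3l group, and 5 others (Trim30a, Lgals3bp, Sp100, Slfn2 and Slfn5).

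RNA came from the hippocampus of wild-type C57BL/6JOlaHsd males, which the labels give as 4 months old, in 4 groups of 5 libraries. Artificial cerebrospinal fluid was infused in Vehicle. Control was infused with a pool of sRNAs from the post-mortem hippocampus of 9 unaffected people. Pool1 and Pool2 were infused with like pools, each from 10 people with schizophrenia. All groups had bilateral cannulas in dorsal CA1 and 2 infusions of 2 µL, 48 hours apart, at 0.24 µg/µL of sRNA where sRNA was given. The tissue was taken 24 hours after the last behavioural test. The comparisons with Vehicle ask what any human sRNA did to these genes. Those of Pool1 and Pool2 with Control ask how each patient pool differed from the Control pool. The paper gives the patients as primarily male, and the Control pool as holding samples of both sexes. In its list of donors, the lowest and the highest RNA integrity number were lower in the Control pool than in either patient pool. It also says that differing antipsychotic exposure across patients may have added to variability in sRNA composition.

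Each sRNA group received 1 pool, so a difference between groups belongs to that pool and not to patients in general. Every mouse carried cannulas, so no group shows the hippocampus without surgery. Library totals ran from 20588280 to 25543939 counts, and 3 counts in a library corresponded to 0.117 to 0.146 CPM (counts scaled to library size with TMM factors), below which a level was read as not detectable. All 6 markers of CA1 pyramidal neurons and all 6 of dentate granule cells had counts in every library, with summed levels of 423 to 1122 CPM and 275 to 819 CPM. Counts are of bulk tissue, in which fewer cells of a type and less RNA per cell cannot be told apart. Replicates are numbered in the labels, which do not say that each is a separate animal, and the p-values measure the spread between these libraries.

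A pair of libraries stood apart, and every comparison of the 44 genes as a set is given with them (20 libraries) and without them (18 libraries). Pool2 replicate 1 was above all of the 18 others in 11.9% of the 16662 genes with a mean count of at least 10 over the 20 libraries. It was so in 43 of the 44 interferon-stimulated genes. In the same library the summed level of 8 T and B cell markers was 9.37 CPM against 0.628 to 2.74 CPM in the 18 others. That of 8 blood monocyte and neutrophil markers was 10.3 CPM against 0.318 to 2.18 CPM. That of 10 microglial markers was 968 CPM against 398 to 596 CPM, and that of 8 neuronal markers was 5134 CPM against 5760 to 7615 CPM. Of those markers, 7, 6, 8 and 0 were above all of the 18 others. Astrocyte markers summed to 7476 CPM against 4620 to 6137 CPM and endothelial markers to 306 CPM against 132 to 250 CPM, with 6 of 8 and 7 of 8 above all of the 18 others. The 5 blood markers summed to 182 CPM against 34.8 to 97.7 CPM, and each was above all of the 18 others. Vehicle replicate 4 was high in choroid plexus markers, with 9078 CPM over 8 markers against 106 to 2308 CPM in the 18 others, and it was above all of them in 3 of the 44 genes and in 6.36% of the 16662 genes. What these cell types contributed to the levels of the 44 genes was not tested.

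Interferons are secreted when cells sense foreign nucleic acid or other signs of infection, and they signal through cell surface receptors and JAK kinases to transcription factors. STAT2 and IRF9 are parts of the complex ISGF3, which binds the interferon-stimulated response element (ISRE) in target promoters, whereas GAS elements serve mainly the response to interferon gamma. The targets degrade or sequester viral RNA, tag proteins with ISG15, disrupt the vacuoles of intracellular pathogens and raise the signalling factors themselves, and in the brain microglia, astrocytes, endothelium and entering leukocytes all use the pathway.

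Levels per length of transcript, in CPM per kilobase of merged exons, differed widely between the genes. The median over the 18 libraries was highest for Ifi27 (25.2), Lgals3bp (6.32), Cmpk2 (5.43), Stat2 (5.40) and Bst2 (4.25), and lowest for Oas3 (a median of 1 count), Zbp1 (0.0655) and Mx1 (0.10). In Pool2 replicate 1 the order changed, with Igtp first at 55.0 CPM per kilobase, Lgals3bp at 45.5, Ifi27 at 44.6, Gbp2 at 37.0 and Bst2 at 26.9. Oas3 had no count in 8 libraries and Mx1 none in 1, while the other 42 genes had counts in all 20. Some transcripts share sequence, and only reads with a single position were counted: 51.2% of the 50-base words of Ifit3 also occur in Ifit3b, and 44.5% of those of Ifit3b in Ifit3. The same held for 57.6% of those of Oas1a in Oas1g, 23.8% of those of Herc6 in Gm45193 and 23.2% of those of Ifi204 in Ifi211, and the other members shared at most 13.6% with other genes. Igtp and Irgm2 overlap on the same strand, and so do Irf9 with Rnf31, Herc6 with Gm45193, Rtp4 with Gm45338, Gbp7 with Gm43802, Ifi203 with Mndal, Parp14 with Gm49730 and Sp100 with n-R5s215. The values of all these genes are uncertain to that extent.

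Promoters are shown for 8 members whose levels are followed below and whose sequence holds letters like the ISRE, the element that ISGF3 binds. Of the 44 genes, 33 matched a RefSeq promoter of 250 bases before and 50 after the start (GRCm38.p6), and 19 of these 33 (57.6%) held GAAA followed by GAAA with any 2 bases between (the ISRE-like motif) on either strand. This compares with 3.99% of the 27025 genes with a promoter in the same table and 3.44% of all 32851 windows of this length. A looser motif, GAAA followed by AAA with any 3 bases between, which contains the first, was in 25 of 33 (75.8%) against 14.2% of genes, and the GAS-like TTCNNNGAA was in 7 of 33 (21.2%) against 9.55%. The 8 windows below run from 160 bases before to 10 after the start, 5′ to 3′ on the strand of the gene, with the ISRE-like motif or its reverse complement (TTTC followed by TTTC with any 2 bases between) in capitals.
Ifit1, chr19:34640729-34640898, plus strand: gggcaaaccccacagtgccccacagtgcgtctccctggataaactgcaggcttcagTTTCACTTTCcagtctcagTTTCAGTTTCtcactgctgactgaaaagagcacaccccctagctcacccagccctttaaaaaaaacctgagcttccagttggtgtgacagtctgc
Ifit3, chr19:34583369-34583538, plus strand: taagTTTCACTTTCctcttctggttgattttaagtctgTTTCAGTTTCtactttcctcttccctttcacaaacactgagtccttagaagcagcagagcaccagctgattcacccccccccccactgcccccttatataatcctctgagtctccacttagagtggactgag
Isg15, chr4:156200809-156200978, minus strand: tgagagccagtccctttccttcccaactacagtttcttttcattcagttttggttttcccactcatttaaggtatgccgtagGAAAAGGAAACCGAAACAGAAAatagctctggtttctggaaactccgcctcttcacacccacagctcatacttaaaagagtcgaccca
Oas1a, chr5:120907516-120907685, minus strand: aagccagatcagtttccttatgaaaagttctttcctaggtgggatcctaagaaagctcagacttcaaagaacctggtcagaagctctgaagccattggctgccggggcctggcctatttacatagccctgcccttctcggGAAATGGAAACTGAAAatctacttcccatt
Gbp2, chr3:142620503-142620672, plus strand: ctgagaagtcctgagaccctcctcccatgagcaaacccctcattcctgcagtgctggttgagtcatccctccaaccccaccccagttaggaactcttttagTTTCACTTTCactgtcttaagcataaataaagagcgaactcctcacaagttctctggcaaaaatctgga
Gbp7, chr3:142530176-142530345, plus strand: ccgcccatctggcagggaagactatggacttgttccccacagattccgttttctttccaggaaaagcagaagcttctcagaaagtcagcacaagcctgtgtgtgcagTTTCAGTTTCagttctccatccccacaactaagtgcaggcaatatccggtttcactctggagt
Igtp, chr11:58199396-58199565, plus strand: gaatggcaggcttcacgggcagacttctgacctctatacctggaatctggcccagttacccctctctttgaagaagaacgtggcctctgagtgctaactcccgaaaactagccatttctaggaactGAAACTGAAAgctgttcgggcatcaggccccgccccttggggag
Irgm1, chr11:48871411-48871580, minus strand: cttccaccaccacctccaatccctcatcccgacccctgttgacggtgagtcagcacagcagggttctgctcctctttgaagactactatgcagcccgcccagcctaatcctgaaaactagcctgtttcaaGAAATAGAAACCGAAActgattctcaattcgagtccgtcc

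Ifit1 and Ifit3, from the RNA-binding IFIT family, each held 2 separate motifs. In Isg15, the ubiquitin-like modifier, 3 matches overlapped in 1 run, and in Oas1a and Irgm1 a pair did. Gbp2, Gbp7 and Igtp, all GTPases, held 1 each. A match is a description of these letters and not a measured binding site.

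Across libraries the 44 genes were highest in Pool2 replicate 1, where their summed level was 1334 CPM, against 233 to 345 CPM in Vehicle, 215 to 264 CPM in Control, 216 to 291 CPM in Pool1 and 241 to 331 CPM in the other Pool2 libraries. The exception in the order was Ifi203, an AIM2-like DNA sensor gene, which was highest in Pool1 replicate 1. Relative to the median of the 18 libraries, the 43 genes with a median of 3 counts or more there, all but Oas3, stood at 1.02 to 50.0 times in Pool2 replicate 1, with a median of 5.51 times. Over 5-fold ratios were reached by 23 of the 43 of these genes with a mean count of at least 10 and by 140 of the 16662 genes (0.840%). That mean was taken over all 20 libraries, so genes high in Pool2 replicate 1 alone could pass through it. Zbp1, the gene at 50.0 times, had a mean normalized count of 21.2 over 20 libraries and 8.59 over 18. Its median over the 18 was 5.5 counts. Vehicle replicate 4 stood at 0.231 to 2.70 times, with a median of 0.857 times, and its 3 genes above all 18 others were Bst2, Lgals3bp and Ifi27. Among the 18 libraries, Vehicle replicate 2 was highest in 14 genes, Pool2 replicate 3 in 12, Vehicle replicate 5 in 8 and Vehicle replicate 1 in 3, and no Control library was highest in any. Their 10 microglial markers summed to 523, 594, 596 and 518 CPM, against 398 to 537 CPM in the 14 others.

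**Figure D1:**
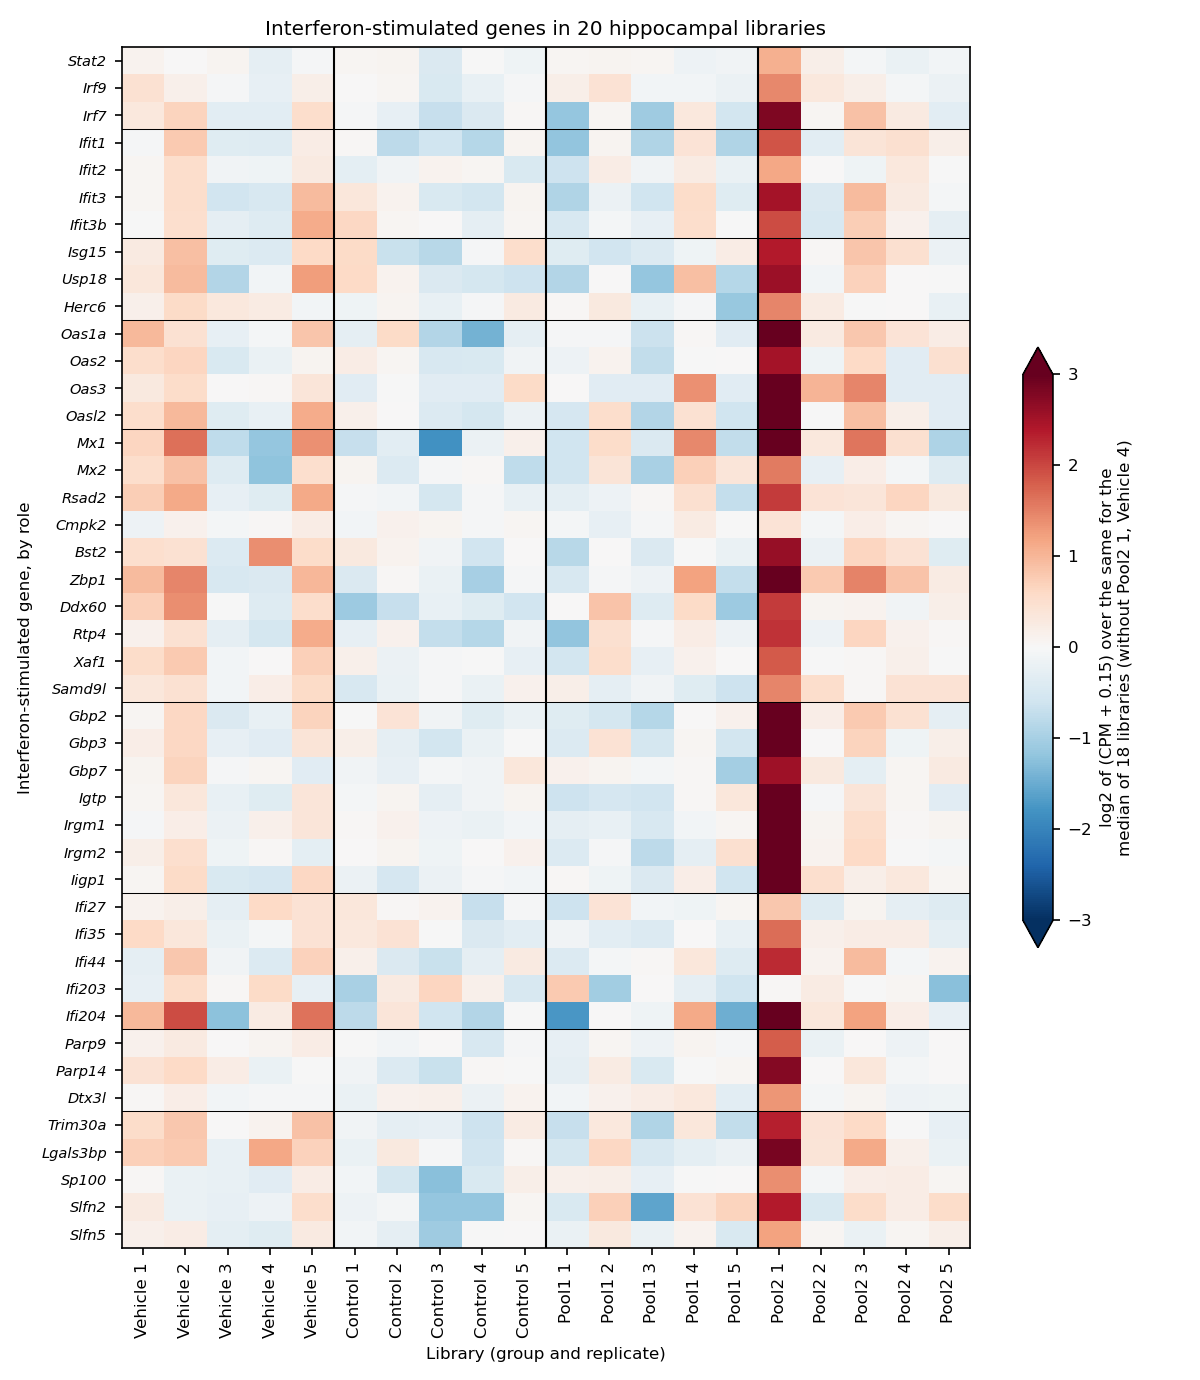
Each row is 1 gene, ordered by role with lines between roles, and each column 1 library, with the colour giving log2 of (CPM + 0.15) over the same for the median of 18 libraries (red higher, blue lower, colours end at 3 on either side). Pool2 replicate 1 is the highest column in all rows but Ifi203, and Vehicle replicates 1, 2 and 5 and Pool2 replicate 3 are paler red in most rows.

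**Figure D2:**
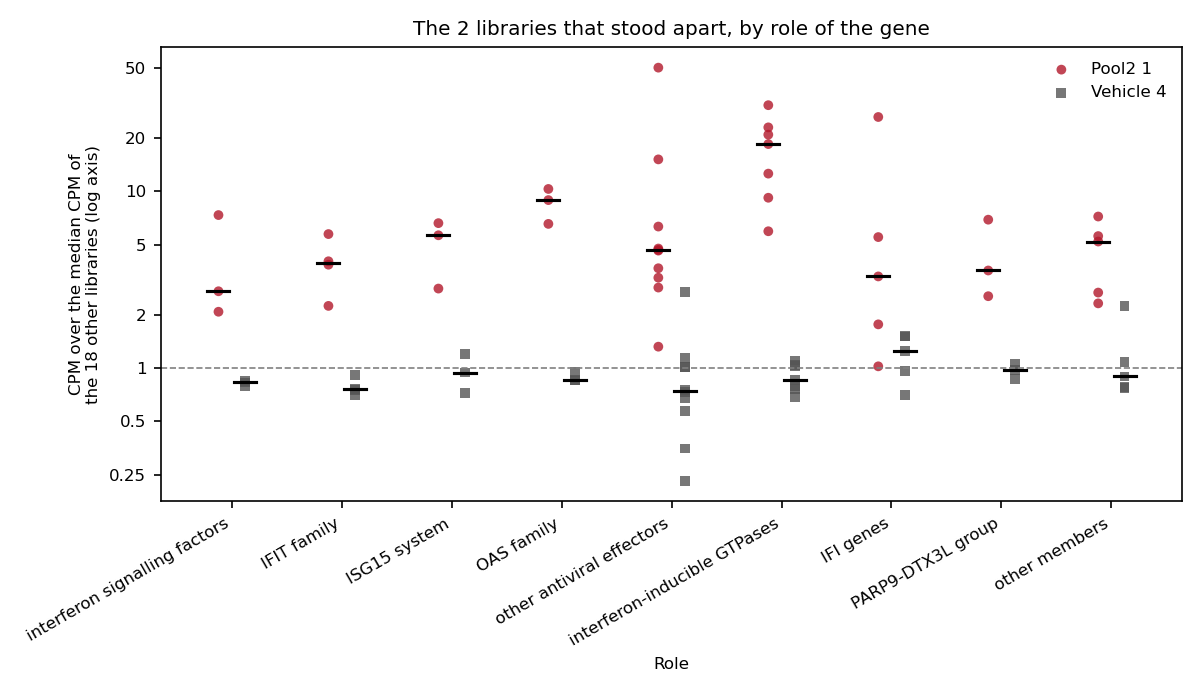
Points are genes, placed by role on the x axis, and the log y axis gives the CPM of Pool2 replicate 1 (circles) and Vehicle replicate 4 (squares) over the median CPM of the 18 other libraries. Oas3, with a median of 1 count, is left out. Black bars are medians, which for Pool2 replicate 1 run from 2.72 in the signalling factors to 18.5 in the GTPases.

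Genes were called at a log2 fold change of 0.3 or more in either direction and p under 0.05 before adjustment, the sRNA groups against Vehicle first. In Control against Vehicle, 0 of the 44 genes were higher and 3 lower (Rsad2, Ddx60 and Samd9l) over 20 libraries, where 1.7% and 3.41% of all genes were called. There were 0 higher and 16 lower over 18 libraries, where 1.7% and 3.37% of all genes were called. All 44 log2 fold changes were below 0 in both fits, with a median of −0.35 and then −0.44. In Pool1 against Vehicle, 0 were higher and 1 lower (Samd9l) over 20 libraries (all genes 1.06% and 4.28%). Over 18 libraries 0 were higher and 14 lower (all genes 0.929% and 4.02%), with medians of −0.35 and −0.46. These 2 comparisons share the Vehicle libraries. In Pool2 against Vehicle, 10 were higher and 0 lower over 20 libraries (all genes 2.8% and 1.89%, median of the 44 genes 0.63). Over 18 libraries 0 were higher and 1 lower (all genes 1.6% and 1.52%, median −0.10). The 16 genes lower in Control over 18 libraries were Irf9, Oas1a, Oasl2, Mx1, Mx2, Rsad2, Zbp1, Ddx60, Rtp4, Xaf1, Samd9l, Iigp1, Ifi204, Parp14, Trim30a and Lgals3bp. The 14 lower in Pool1 were Irf7, Isg15, Oas1a, Oasl2, Rsad2, Bst2, Xaf1, Samd9l, Gbp2, Ifi35, Ifi204, Parp14, Trim30a and Lgals3bp. The 10 higher in Pool2 over 20 were Oas2, Oas3, Zbp1, Gbp2, Gbp3, Igtp, Irgm1, Irgm2, Iigp1 and Sp100. The 1 gene lower in Pool2 over 18, Xaf1, was named after its values were seen. Genes with few counts were kept: where those with a mean normalized count under 10 were dropped after the test, Oas3 left the counts over 20 libraries and Oas3 and Zbp1 those over 18, and no count of members changed by more than 1. The median over all 25190 genes lay between −0.01 and 0.02 in all 12 fits.

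Between the sRNA groups, few of the 44 genes were called in Pool1 against Control and most of the calls lay in Pool2. Of the 44 genes, 0 were higher and 0 lower over 20 libraries (all genes 1.48% and 1.99%), and 1 higher (Ddx60) and 0 lower over 18 (all genes 1.48% and 2.3%), with a median of 0.02 in both. In Pool2 against Control, 35 were higher and 0 lower over 20 libraries (all genes 5.2% and 1.01%, median of the 44 genes 1.18). Over 18 libraries 6 were higher and 0 lower (all genes 3.38% and 1.17%, median 0.34). In Pool2 against Pool1, 29 were higher and 0 lower over 20 libraries (all genes 5.66% and 1.16%, median 1.16). Without the 2 libraries 6 were higher and 0 lower (all genes 3.91% and 1.04%, median 0.34). In the fits with 18 libraries, the 6 genes were Oas1a, Rsad2, Zbp1, Samd9l, Iigp1 and Sp100 against Control, and Irf7, Rsad2, Samd9l, Gbp2, Irgm1 and Iigp1 against Pool1. Over 20 libraries the 9 genes not called against Control were Stat2, Ifit3b, Herc6, Mx2, Cmpk2, Ifi27, Ifi35, Ifi203 and Dtx3l. The 15 not called against Pool1 were Stat2, Irf9, Ifit2, Ifit3b, Mx1, Mx2, Cmpk2, Ddx60, Xaf1, Ifi27, Ifi203, Dtx3l, Sp100, Slfn2 and Slfn5. Both comparisons share the Pool2 libraries.

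No gene of the table, member or not, had an adjusted p-value under 0.05 with edgeR in any of the 12 fits (0%). At an unadjusted p-value under 0.05 the members numbered 3, 1, 10, 0, 35 and 29 in the 6 comparisons in the order above over 20 libraries, and 16, 15, 1, 1, 6 and 6 over 18. Of all 25190 genes, 1672, 1603, 1385, 1314, 1939 and 2146 were under that value over 20 libraries, and 1638, 1458, 865, 1376, 1311 and 1443 over 18. With DESeq2, which gave no p-value for 9 of the 44 members over 20 libraries, 1 member passed an adjusted p-value of 0.05, Samd9l in Pool2 against Pool1 over 20 libraries (adjusted p = 0.0294), where DESeq2 called 115 genes in all, after 0, 34, 9, 7 and 18 in the comparisons before it. With the same tool 0 members did in the other comparisons or over 18 libraries, where DESeq2 called 3, 39, 8, 6, 12 and 87 genes in all in the order above. Pool2 replicate 1 also entered comparisons that do not contain it, through the estimate of the spread that the 4 groups share. The 10 members higher in Pool2 than in Vehicle became 19, 15, 17 and 17 when Pool2 replicate 2, 3, 4 or 5 was left out of the 20 libraries, 6 when Vehicle replicate 3 or 4 was, and 0 without Pool2 replicate 1. In the first 6 of these fits 2.1% to 3.27% of all genes were called higher, and 1.89% in the fit without Pool2 replicate 1. Without that library the members higher in Pool2 numbered 6 against Control and 4 against Pool1 (all genes 3.31% and 3.67%). Without Pool2 replicate 1 alone, 12 members were lower in Control and 10 in Pool1 against Vehicle (all genes 3.88% and 4.87%), and without Vehicle replicate 4 alone, 3 and 2 were (2.81% and 3.25%). The fits of 18 libraries rested in turn on single Vehicle and Pool1 libraries: the 16 members lower in Control became 9 without Vehicle replicate 2, 8 without replicate 5 and 27 without replicate 3 (all genes 2.36%, 4.29% and 4.46%). The 14 lower in Pool1 became 7, 6, 26 and 7 without Vehicle replicates 1, 2, 3 and 5, 8 and 6 without Pool1 replicates 1 and 3, and 21 without Pool1 replicate 4 (1.5 times). All genes were called lower in 2.35%, 3.03%, 5.4% and 4.05% without those Vehicle libraries, and in 3.8%, 3.23% and 3.79% without those of Pool1. Over 20 libraries the 3 lower in Control became 0 without Vehicle replicate 2 and 1 without replicate 1 or 5 (all genes 2.66%, 2.62% and 4.32%). The 1 lower in Pool1 became 0 without Vehicle replicate 5 or Pool1 replicate 5, 2 without Vehicle replicate 4 and 3 without Vehicle replicate 3 or Pool1 replicate 4 (all genes 4.52%, 4.98%, 3.25%, 5.28% and 3.87%). Over 18 libraries the 1 member lower in Pool2 than in Vehicle became 5 without Vehicle replicate 3, 3 without Pool2 replicate 3 and 0 without Vehicle replicate 2 or 5 (all genes 2.38%, 1.63%, 1.23% and 1.87%). In the same way the 6 members higher in Pool2 than in Control became 11 without Pool2 replicate 5 (all genes 3.6%). The 6 higher than in Pool1 became 1 and 3 without Pool2 replicates 3 and 4, 10 without Pool2 replicate 5, 2 without Pool1 replicate 3 and 12 without Pool1 replicate 4 (all genes 3.7%, 3.07%, 3.87%, 3.02% and 3.6%).

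**Figure D3:**
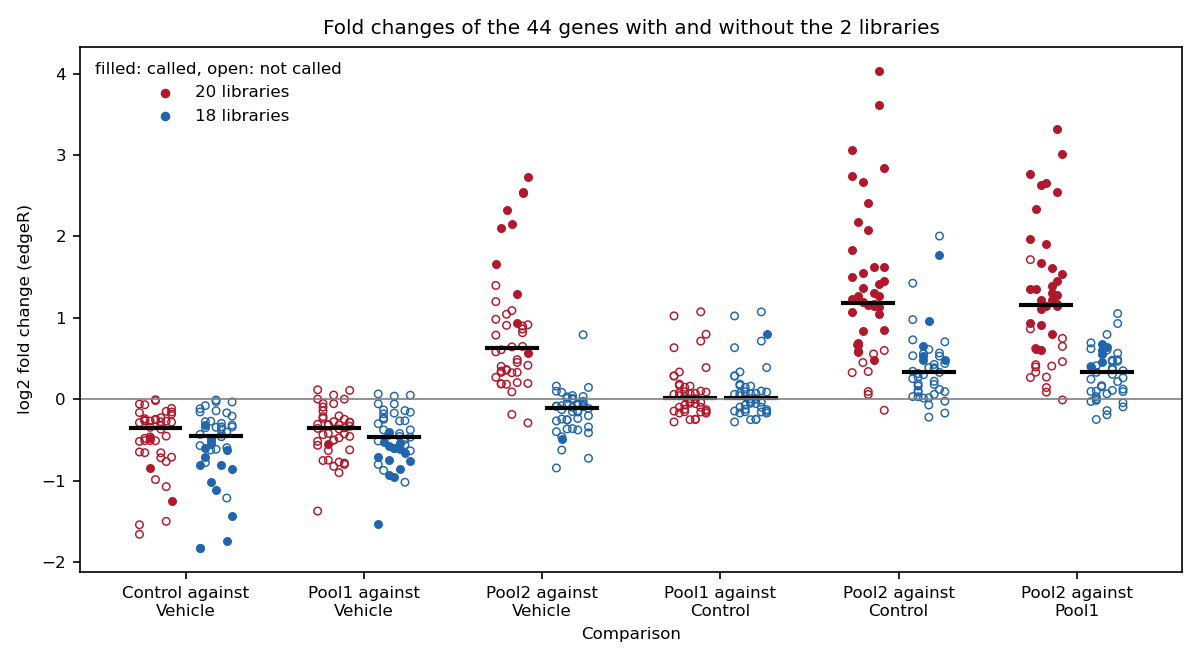
Points are the 44 genes, with the comparison on the x axis and the edgeR log2 fold change on the y axis, in red over 20 libraries and in blue over 18 (filled where the gene was called), and bars are medians. The medians of the 3 comparisons with Pool2 drop from 0.63, 1.18 and 1.16 to −0.10, 0.34 and 0.34, while those of Control and Pool1 against Vehicle stay below 0.

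The signalling factors had the lowest median ratio of the roles in Pool2 replicate 1. STAT2 and IRF9, which act in ISGF3, stood there at 2.08 and 2.72 times the median of the 18 others. IRF7, which amplifies type I interferon production, was at 7.34 times. For Stat2, the Vehicle libraries held 34.7, 32.3, 33.6, 26.5 and 31.2 CPM, the Control libraries 33.3, 34, 23.7, 31.6 and 29.4 CPM, the Pool1 libraries 33.4, 33.6, 33.1, 28.7 and 29.9 CPM and the Pool2 libraries 66.6, 36.3, 30.5, 27.8 and 30.1 CPM. Irf9 had levels of 16.8, 13.6, 11.8, 10.3 and 13.8 CPM (Vehicle), 12.4, 12.7, 8.84, 10.4 and 12 CPM (Control), 13.7, 16.6, 11.5, 11.4 and 10.7 CPM (Pool1) and 33.1, 15.1, 13.7, 11.7 and 10.7 CPM (Pool2). Irf7 was at 3.29, 4.24, 2.06, 2.06 and 3.86 CPM in Vehicle, 2.55, 2.18, 1.57, 1.91 and 2.7 CPM in Control, 1.09, 2.73, 1.16, 3.28 and 1.74 CPM in Pool1 and 19.2, 2.73, 4.92, 3.17 and 2.06 CPM in Pool2. Without Pool2 replicate 1 the groups overlapped for all 3 genes, and Pool1 replicates 1 and 3 were the lowest for Irf7. Against Control, the log2 fold change in Pool2 over 20 libraries was 0.58 ± 0.24 (SE) for Irf9 and 1.55 ± 0.51 for Irf7, both called, and 0.33 ± 0.18 for Stat2, not called. Over 18 libraries they were 0.19 ± 0.14, 0.56 ± 0.30 and 0.03 ± 0.10, none called. Against Vehicle over 18 libraries, Irf9 was lower in Control (−0.32 ± 0.14) and Irf7 in Pool1 (−0.74 ± 0.31).

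The IFIT proteins bind foreign RNA ends and block translation from them. For Ifit1, the Vehicle libraries held 3.16, 5.67, 2.46, 2.46 and 3.82 CPM, the Control libraries 3.31, 1.82, 2.07, 1.71 and 3.45 CPM, the Pool1 libraries 1.33, 3.41, 1.65, 4.35 and 1.66 CPM and the Pool2 libraries 12.4, 2.57, 4.25, 4.59 and 3.69 CPM. Ifit3 had levels of 6.49, 8.96, 4.12, 4.39 and 12.1 CPM (Vehicle), 7.87, 6.7, 4.51, 4.21 and 6.59 CPM (Control), 3.28, 5.47, 4.08, 9.18 and 4.82 CPM (Pool1) and 35.6, 4.56, 12.1, 7.47 and 5.93 CPM (Pool2). Ifit3b was at 3.03, 4.46, 2.54, 2.33 and 6.84 CPM in Vehicle, 4.78, 3.21, 3.13, 2.54 and 3.23 CPM in Control, 2.18, 2.96, 2.57, 4.48 and 3.03 CPM in Pool1 and 12.4, 2.18, 5.21, 3.38 and 2.53 CPM in Pool2. Apart from Pool2 replicate 1, the highest library was Vehicle replicate 2 for Ifit1, Pool2 replicate 3 for Ifit3 and Vehicle replicate 5 for Ifit3b. The groups overlapped for each. In Pool2 against Control the log2 fold changes were 1.15 ± 0.41 (SE) for Ifit1 and 1.13 ± 0.49 for Ifit3, both called, and 0.60 ± 0.40 for Ifit3b, not called, over 20 libraries. Over 18 they were 0.61 ± 0.33, 0.33 ± 0.34 and −0.02 ± 0.29, none called. Ifit2 spanned 6.27 to 14.1 CPM in the 18 libraries and 21.8 CPM in Pool2 replicate 1, and was called only in Pool2 against Control over 20 libraries. Of the 4 IFIT genes, 0 were called lower in Control or in Pool1 against Vehicle in either fit. All genes were called lower in 3.41% and 4.28% over 20 libraries and in 3.37% and 4.02% over 18. The medians of the 4 genes were −0.37 and −0.51 over 18 libraries.

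ISG15 is attached to proteins through enzymes that include the ligase HERC6, and USP18 removes it and restrains the interferon receptor. For Isg15, the Vehicle libraries held 1.64, 2.64, 1.01, 0.965 and 2.09 CPM, the Control libraries 2.06, 0.793, 0.69, 1.31 and 1.99 CPM, the Pool1 libraries 1.01, 0.852, 0.971, 1.21 and 1.58 CPM and the Pool2 libraries 7.54, 1.36, 2.5, 1.92 and 1.16 CPM. Usp18 had levels of 1.52, 2.38, 0.565, 1.1 and 2.98 CPM (Vehicle), 1.83, 1.27, 0.829, 0.755 and 0.708 CPM (Control), 0.566, 1.17, 0.437, 2.28 and 0.581 CPM (Pool1) and 7.68, 1.09, 1.96, 1.17 and 1.16 CPM (Pool2). Pool2 replicate 1 had at least 2.58 times the level of any of the 18 others in both genes, and below it the groups overlapped. Isg15 was called higher in Pool2 than in Control over 20 libraries (1.07 ± 0.45) and not over 18 (0.34 ± 0.33), and Usp18 likewise (1.26 ± 0.59 and 0.32 ± 0.47). In Pool1 against Vehicle over 18 libraries, Isg15 was lower, at −0.71 ± 0.33, and Usp18 had −0.87 ± 0.46, not called. Herc6 ranged over 1.54 to 5.37 CPM in the 18 libraries and 10.1 CPM in Pool2 replicate 1, and was called only in Pool2 against Pool1 over 20 libraries.

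The OAS enzymes sense double-stranded RNA and switch on RNase L. Oasl2 was at 6.87, 9.39, 3.67, 4.04 and 10.4 CPM in Vehicle, 5.28, 4.8, 3.5, 3.22 and 4.2 CPM in Control, 3.28, 6.86, 2.52, 6.59 and 3.07 CPM in Pool1 and 42.2, 4.67, 9.0, 5.38 and 3.74 CPM in Pool2. For Oas1a, the Vehicle libraries held 1.05, 0.693, 0.363, 0.439 and 0.931 CPM, the Control libraries 0.358, 0.754, 0.184, 0.0795 and 0.354 CPM, the Pool1 libraries 0.445, 0.448, 0.243, 0.474 and 0.332 CPM and the Pool2 libraries 4.75, 0.584, 0.917, 0.668 and 0.558 CPM. For Oas1a the Pool2 libraries, with replicate 1 or without it, lay above all Pool1 libraries and overlapped with Control, whose replicate 4 had 2 counts. The Pool1 libraries held 5 to 11 counts, and Oas1a was called in Pool2 against Pool1 over 20 libraries but not over 18. In what share of all genes 2 groups lay apart like this was not counted. Pool2 was higher than Control in Oas1a over 20 libraries (2.07 ± 0.59, adjusted p = 0.479) and over 18 (0.96 ± 0.42, adjusted p = 0.906). Against Vehicle over 18 libraries, Oas1a was lower in Control (−1.11 ± 0.42) and in Pool1 (−0.95 ± 0.42), and Oasl2 in both as well (−0.85 ± 0.34 and −0.76 ± 0.33). Oas2 spanned 0.437 to 1.39 CPM in the 18 libraries and 5.39 CPM in Pool2 replicate 1, and was higher in Pool2 than in each other group over 20 libraries and in no comparison over 18. Oas3 had 40 counts in Pool2 replicate 1 and 0 to 9 elsewhere, and no ratio or fold change is given for it. With its mean of 3.9 counts it was still among the genes called higher in Pool2 than in each other group over 20 libraries. Over 18 it was called in none of these comparisons.

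Among the other antiviral effectors, viperin (Rsad2) makes a chain-terminating nucleotide and ZBP1 senses Z-form nucleic acid and can start necroptosis. Rsad2 had levels of 2.61, 3.51, 1.25, 1.14 and 3.49 CPM (Vehicle), 1.48, 1.43, 1.01, 1.47 and 1.28 CPM (Control), 1.21, 1.34, 1.55, 2.15 and 0.872 CPM (Pool1) and 6.99, 2.06, 2.0, 2.46 and 1.89 CPM (Pool2). Zbp1 was at 0.59, 0.909, 0.121, 0.132 and 0.605 CPM in Vehicle, 0.134, 0.238, 0.184, 0.0398 and 0.221 CPM in Control, 0.121, 0.224, 0.194, 0.733 and 0.0831 CPM in Pool1 and 11.6, 0.506, 0.917, 0.543 and 0.301 CPM in Pool2. The 5 Pool2 libraries lay above the 5 Control libraries for both genes, with or without replicate 1, while Vehicle overlapped with both groups. The share of all genes in which Pool2 lay above Control in this way was not counted. Rsad2 was higher in Pool2 than in Control by 1.2 ± 0.37 over 20 libraries and 0.65 ± 0.27 over 18, and its log2 fold change in Control against Vehicle was −0.84 ± 0.37 over 20 and −1.02 ± 0.27 over 18, called in both. Zbp1 had log2 fold changes of 4.03 ± 1.04 and 1.77 ± 0.59 in Pool2 against Control, called in both, but rested on 1 to 6 counts per Control library.

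Tetherin (Bst2) holds budding virions at the cell surface, SAMD9L restrains translation, and DDX60 is a helicase tied to RNA sensing. For Bst2, the Vehicle libraries held 5.52, 5.37, 2.87, 10.4 and 5.68 CPM, the Control libraries 4.74, 4.17, 3.54, 2.54 and 3.89 CPM, the Pool1 libraries 2.1, 3.9, 2.81, 3.79 and 3.32 CPM and the Pool2 libraries 24.3, 3.39, 6.04, 5.22 and 2.96 CPM. Samd9l had levels of 4.59, 5.02, 3.39, 4.12 and 5.45 CPM (Vehicle), 2.55, 3.09, 3.5, 3.14 and 3.94 CPM (Control), 4.09, 2.96, 3.35, 2.76 and 2.28 CPM (Pool1) and 10.3, 5.3, 3.71, 4.92 and 4.9 CPM (Pool2). Ddx60 was at 2.23, 3.68, 1.29, 0.965 and 1.95 CPM in Vehicle, 0.536, 0.754, 1.1, 0.994 and 0.84 CPM in Control, 1.33, 2.51, 0.971, 2.03 and 0.54 CPM in Pool1 and 6.12, 1.4, 1.42, 1.21 and 1.5 CPM in Pool2. Bst2 was highest after Pool2 replicate 1 in Vehicle replicate 4, the library high in choroid plexus markers. For Ddx60 all Control libraries lay below all Pool2 libraries, and below all Vehicle libraries except replicate 4. Ddx60 was called in Pool2 against Control over 20 libraries and not over 18, and the share of all genes lying apart like this was not counted. Samd9l had the smallest p-value of the 44 genes in Pool2 against Control over 20 libraries (0.84 ± 0.22, adjusted p = 0.445), and was called over 18 as well (0.54 ± 0.19). It was lower than in Vehicle in Control (−0.48 ± 0.22 over 20, −0.51 ± 0.19 over 18) and in Pool1 (−0.55 ± 0.22 and −0.58 ± 0.19). Ddx60 was lower in Control than in Vehicle (−1.25 ± 0.49 and −1.43 ± 0.35), and Bst2 was lower in Pool1 than in Vehicle over 18 libraries (−0.61 ± 0.24), where over 20 it had −0.90 ± 0.48, not called. Mx1 and Mx2 are annotated as polymorphic pseudogenes, since C57BL/6 alleles make no working protein, and their transcripts were still counted. Mx1 spanned 0 to 1.52 CPM in the 18 libraries and 5.76 CPM in Pool2 replicate 1, and Mx2 0.437 to 1.95 CPM in the 18 libraries and 3.24 CPM in Pool2 replicate 1. Both were lower in Control than in Vehicle over 18 libraries, as were Rtp4, at 0.85 to 4.79 CPM in the 18 libraries and 10.1 CPM in Pool2 replicate 1, and Xaf1, at 3.12 to 8.14 CPM in the 18 libraries and 17 CPM in Pool2 replicate 1. Xaf1, a partner of the apoptosis inhibitor XIAP, was also lower over 18 libraries in Pool1 (−0.52 ± 0.19) and Pool2 (−0.49 ± 0.20) than in Vehicle, while over 20 it had 0.19 ± 0.32 in Pool2 against Vehicle, not called. Over the 10 effectors, 8 were lower in Control and 4 in Pool1 against Vehicle with 18 libraries (all genes 3.37% and 4.02%). With 20 libraries those lower were Rsad2, Ddx60 and Samd9l in Control and Samd9l in Pool1 (all genes 3.41% and 4.28%). With 20 libraries 8 were higher in Pool2 than in Control and 5 than in Pool1 (all genes 5.2% and 5.66%). With 18 libraries those higher were Rsad2, Zbp1 and Samd9l against Control, and Rsad2 and Samd9l against Pool1 (all genes 3.38% and 3.91%). Cmpk2, a mitochondrial nucleotide kinase gene, stayed at 19.1 to 29.9 CPM in all 20 libraries.

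**Figure D4:**
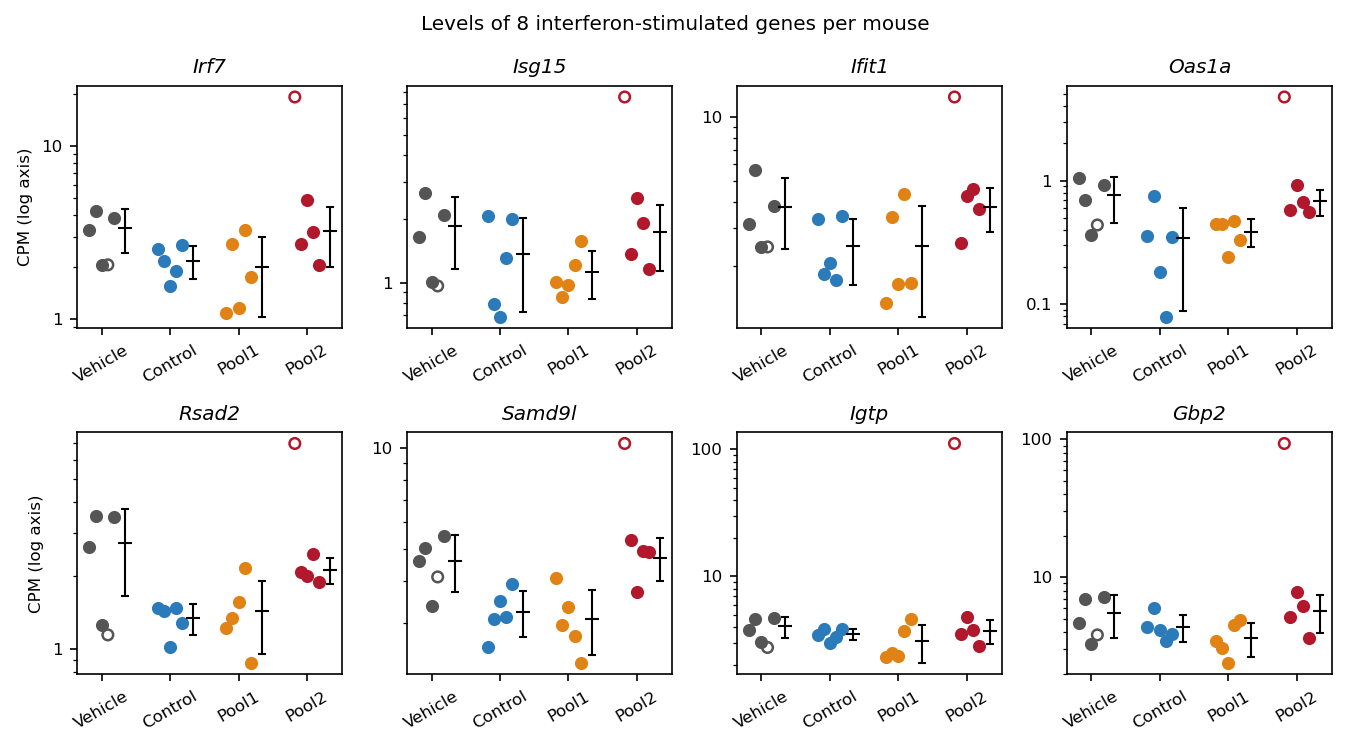
Each panel gives the CPM of 1 gene on a log axis by group, with 1 point per library (open for Pool2 replicate 1 and Vehicle replicate 4) and the mean ± SD of the filled points beside them (n = 4, 5, 5 and 4). The open Pool2 point is the highest in each of the 8 panels, and the filled points of the groups overlap in part.

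The GTPases, which attack the vacuoles that intracellular pathogens live in and are classical targets of interferon gamma, had the highest median ratio of the roles in Pool2 replicate 1, 18.5 times the median of the 18 others with a range of 5.94 to 30.7. Zbp1, of another role, stood higher at 50.0 times, but over a median of only 5.5 counts in the 18 others. For Gbp2, the Vehicle libraries held 4.68, 6.97, 3.27, 3.82 and 7.21 CPM, the Control libraries 4.38, 5.95, 4.14, 3.42 and 3.85 CPM, the Pool1 libraries 3.44, 3.05, 2.38, 4.52 and 4.86 CPM and the Pool2 libraries 93.1, 5.14, 7.83, 6.18 and 3.65 CPM. Igtp had levels of 3.79, 4.63, 3.07, 2.76 and 4.7 CPM (Vehicle), 3.49, 3.85, 2.99, 3.34 and 3.85 CPM (Control), 2.31, 2.51, 2.38, 3.71 and 4.65 CPM (Pool1) and 111, 3.54, 4.79, 3.8 and 2.83 CPM (Pool2). The 18 other libraries spanned 2.38 to 7.83 CPM in Gbp2 and 2.31 to 4.79 CPM in Igtp, and the groups overlapped there. Irgm2 was at 5.01, 6.36, 4.04, 4.56 and 3.58 CPM in Vehicle, 4.47, 4.68, 4.0, 4.49 and 4.86 CPM in Control, 3.28, 4.35, 2.52, 3.62 and 6.23 CPM in Pool1 and 81.9, 4.79, 6.75, 4.38 and 4.25 CPM in Pool2. For Iigp1, the Vehicle libraries held 3.16, 4.59, 2.14, 2.06 and 4.7 CPM, the Control libraries 2.64, 2.06, 2.62, 2.94 and 2.83 CPM, the Pool1 libraries 3.07, 2.73, 2.18, 3.45 and 1.95 CPM and the Pool2 libraries 69.1, 4.36, 3.42, 3.76 and 3.14 CPM. Iigp1 was the one of these 4 in which the other Pool2 libraries, at 3.14 to 4.36 CPM, lay above all Control libraries, at 2.06 to 2.94 CPM. The share of all genes that did so was not counted. Of the other GTPases, Gbp3 spanned 4.0 to 9.5 CPM in the 18 libraries and 54.8 CPM in Pool2 replicate 1, Gbp7 2.12 to 7.19 CPM in the 18 libraries and 26.6 CPM in Pool2 replicate 1, and Irgm1 7.67 to 15.7 CPM in the 18 libraries and 135 CPM in Pool2 replicate 1.

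Igtp, Irgm2 and Iigp1 had the smallest p-values of the 44 genes in Pool2 against Vehicle over 20 libraries, with log2 fold changes of 2.73 ± 0.88, 2.11 ± 0.72 and 2.33 ± 0.77 (SE). Over 18 libraries they had −0.11 ± 0.22, 0.09 ± 0.23 and 0.01 ± 0.23. Of the 7 GTPases, 6 were higher in Pool2 than in Vehicle, 7 than in Control and 7 than in Pool1 over 20 libraries (all genes 2.8%, 5.2% and 5.66%). Over 18 there were 0, 1 (Iigp1) and 3 (Gbp2, Irgm1 and Iigp1), beside 1.6%, 3.38% and 3.91% of all genes. The fold change of Gbp2 was 2.41 ± 0.75 against Control over 20 libraries and 0.39 ± 0.25 over 18. Against Vehicle over 18 libraries, Iigp1 was lower in Control (−0.47 ± 0.22) and Gbp2 in Pool1 (−0.59 ± 0.25), and the other GTPases were not called.

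Ifi27, a small mitochondrial protein gene, was the most abundant member per length. Ifi27 had levels of 39.9, 41.5, 30.7, 55.9 and 50.2 CPM (Vehicle), 47.3, 38.1, 40.0, 22.8 and 36 CPM (Control), 24, 49.1, 35.1, 33.7 and 38.5 CPM (Pool1) and 65.4, 28.4, 39.1, 30.5 and 28.4 CPM (Pool2). Its values overlapped between all groups, with Vehicle replicate 4 second to Pool2 replicate 1, and no comparison called it: the log2 fold change in Pool2 against Control was 0.06 ± 0.25 over 20 libraries and −0.22 ± 0.20 over 18. Ifi35 spanned 2.07 to 4.34 CPM in the 18 libraries and 9.32 CPM in Pool2 replicate 1, Ifi44 0.414 to 1.58 CPM in the 18 libraries and 4.11 CPM in Pool2 replicate 1, and Ifi203 2.19 to 9.47 CPM in the 18 libraries and 5.58 CPM in Pool2 replicate 1. Of these 3, Ifi35 was lower in Pool1 than in Vehicle over 18 libraries (−0.54 ± 0.21), and Ifi203 was called in no comparison. Over 20 libraries Ifi44 was higher in Pool2 than in Control (1.27 ± 0.43) and in Pool1 (1.17 ± 0.43), and Ifi35 than in Pool1 (0.80 ± 0.29). Over 18 neither was called in these comparisons. Ifi204, a DNA sensor gene, had 282 counts in Pool2 replicate 1 and 1 to 54 elsewhere, and was lower in Control (−1.82 ± 0.72) and in Pool1 (−1.54 ± 0.70) than in Vehicle over 18 libraries. Over 20 it was higher in Pool2 than in Control and in Pool1, and it was called in neither of these over 18. Parp9 spanned 3.82 to 6.54 CPM in the 18 libraries and 19.2 CPM in Pool2 replicate 1, Dtx3l 6.64 to 10.3 CPM in the 18 libraries and 21.1 CPM in Pool2 replicate 1, and Parp14 3.08 to 7.58 CPM in the 18 libraries and 34.5 CPM in Pool2 replicate 1. Parp9 and Dtx3l, which share a promoter region and whose proteins form a complex, stood at 3.56 and 2.55 times the median in Pool2 replicate 1, and Parp14 at 6.91 times. Of these 3, Parp14 was lower in Control and in Pool1 against Vehicle over 18 libraries (−0.55 ± 0.18 and −0.40 ± 0.18). Over 20, Parp9 and Parp14 were higher in Pool2 than in Control (0.66 ± 0.29 and 1.37 ± 0.47) and in Pool1 (0.62 ± 0.29 and 1.22 ± 0.46). Neither was called in these comparisons over 18. Dtx3l was called in no comparison.

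Of the remaining genes, SP100 is a scaffold of nuclear bodies and SLFN2 protects tRNA in T cells. Sp100 was at 4.47, 3.81, 3.75, 3.42 and 5.17 CPM in Vehicle, 4.11, 3.01, 1.75, 3.14 and 4.95 CPM in Control, 4.85, 4.93, 3.69, 4.31 and 4.44 CPM in Pool1 and 11.7, 4.21, 5.04, 5.17 and 4.6 CPM in Pool2. For Slfn2, the Vehicle libraries held 1.98, 1.39, 1.33, 1.45 and 2.37 CPM, the Control libraries 1.43, 1.55, 0.644, 0.636 and 1.68 CPM, the Pool1 libraries 1.13, 2.73, 0.437, 2.24 and 2.66 CPM and the Pool2 libraries 9.0, 1.13, 2.42, 1.92 and 2.45 CPM. The lowest library was Control replicate 3 for Sp100 and Pool1 replicate 3 for Slfn2, and below Pool2 replicate 1 the groups overlapped. Pool2 exceeded Control in Sp100 over 20 libraries (0.85 ± 0.26) and over 18 (0.49 ± 0.20), and in Slfn2 over 20 (1.5 ± 0.51) but not over 18 (0.73 ± 0.41). Trim30a spanned 1.65 to 6.0 CPM in the 18 libraries and 16.6 CPM in Pool2 replicate 1, Lgals3bp, a secreted galectin-binding protein gene, 12 to 39.5 CPM in the 18 libraries and 129 CPM in Pool2 replicate 1, and Slfn5 3.31 to 8.79 CPM in the 18 libraries and 16.6 CPM in Pool2 replicate 1. Over 18 libraries Trim30a was lower than in Vehicle in Control (−0.80 ± 0.27) and Pool1 (−0.86 ± 0.27), and Lgals3bp likewise (−0.62 ± 0.29 and −0.65 ± 0.29), while Slfn5 was called only in Pool2 against Control over 20 libraries. Trim30a and Lgals3bp were higher in Pool2 than in Control and in Pool1 over 20, and neither was called in these comparisons over 18. Ddx60, Sp100 and Slfn2 had the smallest p-values of the 44 genes in Pool1 against Control, with log2 fold changes of 0.80 ± 0.49, 0.39 ± 0.26 and 0.63 ± 0.52 over 20 libraries, none called. The paper, with DESeq2 and the same thresholds, lists Sp100 as upregulated in both Pool1 and Pool2 mice against Control mice. DESeq2 here called 0 members higher in Pool1 over 20 libraries, with 9 members left without a p-value. The reason for the difference was not tested.

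Other genes of the pathway were read from lists of 9 receptors and kinases, 7 transcription factors, 6 inhibitors and 44 further inducible genes. The 13 interferon genes looked for had no row and were not analysed here. In Pool2 replicate 1, 6 of the receptors and kinases, 5 of the transcription factors, 4 of the inhibitors and 40 of the further inducible genes were above all 18 others. Irf1, an interferon-induced transcription factor gene, was at 47.1 CPM there against 5.34 to 11.1 CPM, and Irf8, a factor of myeloid cells, at 36.4 against 5.06 to 10.2. The chemokine genes Cxcl9 and Cxcl10, whose products draw T cells, were at 8.0 CPM (Cxcl9) against 0 to 0.736 and at 10.9 CPM against 0.0404 to 2.25. Nlrc5, the activator of MHC class I genes, was at 37.5 CPM against 0.473 to 3.68. Jak1 was below the range of the 18 others, at 171 CPM against 192 to 222, and Adar, the RNA editor, was within it, at 155 CPM against 149 to 215.

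In Pool2 against Control, 0 of the receptors and kinases, 4 of the transcription factors (Irf1, Irf5 and Irf8 among them), 2 of the inhibitors (Socs3 and Ptpn6) and 29 of the further inducible genes were higher over 20 libraries (all genes 5.2%). Over 18 there were 0, 0, 1 (Socs3) and 6 (all genes 3.38%), with none lower in either fit. In Control against Vehicle, 1 receptor gene (Ifnlr1) and 1 further inducible gene (Trim25) were lower over 20 libraries (all genes 3.41%). Over 18 there were 0, 1 (Irf8), 2 (Socs3 and Ptpn6) and 14 lower in the 4 lists (all genes 3.37%), with none higher. In Pool1 against Vehicle, 2 (Ifnlr1 and Il10rb), 0, 1 (Socs3) and 1 (Ccl5) were lower over 20 libraries (all genes 4.28%). Over 18 there were 1 (Il10rb), 1 (Irf8), 2 (Socs3 and Ptpn6) and 12 (all genes 4.02%), again with none higher. Ifnlr1 had a mean of 4.62 counts. Of the further inducible genes, 36 had a mean normalized count of at least 10 over 20 libraries and 32 over 18. Tgtp1, Ifi207, Ifi209 and Cxcl9 passed that limit only over 20 libraries, at means of 12.2, 10.9, 15.4 and 11.5. Over 18 they had 7.59, 7.77, 9.82 and 2.40. The filter over 20 libraries thus drew on Pool2 replicate 1, where they were high. Of the 36 and then the 32, 24 and then 5 were higher in Pool2 than in Control. Over 18 libraries 12 were lower in Control and 9 in Pool1 than in Vehicle. With the same filter 5.03%, 3.03%, 3.21% and 4.09% of all genes were called. Against Vehicle, 9 were higher in Pool2 over 20 libraries (all genes 2.42%), and 0 higher and 2 lower over 18 (1.14% and 1.13%). Against Pool1, 24 and then 4 were higher in Pool2 (all genes 5.83% and 3.9%). These genes were named after their values were seen. The further inducible genes had medians of −0.45 in Control and −0.56 in Pool1 against Vehicle over 18 libraries, beside −0.44 and −0.46 for the 44 members.

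Levels of cell type markers are given by group beside these differences. The summed microglial markers were at 478 to 596 CPM in the Vehicle libraries other than replicate 4, at 404 to 537 CPM in Control. They were at 415 to 468 CPM in Pool1 and at 398 to 594 CPM in the Pool2 libraries other than replicate 1, so that these Vehicle libraries lay above Pool1 without overlap and overlapped with Control. With Vehicle replicate 4, at 427 CPM, Vehicle overlapped with Pool1 too. Blood monocyte and neutrophil markers summed to 0.404 to 2.03 CPM in those Vehicle libraries, 0.318 to 1.47 CPM in Control, 0.405 to 0.689 CPM in Pool1 and 0.833 to 2.18 CPM in those of Pool2. T and B cell markers summed to 0.969 to 2.74, 0.835 to 2.03, 0.628 to 1.16 and 1.07 to 2.33 CPM in the same order. Border macrophage markers summed to 5.63 to 7.77 CPM in Vehicle without replicate 4 (4.08 CPM), 4.36 to 5.84 CPM in Control, 3.45 to 7.06 CPM in Pool1 and 5.46 to 13.6 CPM in Pool2 without replicate 1 (6.17 CPM). Leptomeningeal fibroblast markers summed to 96.3 to 134 CPM in Vehicle, 84.3 to 119 CPM in Control, 88.1 to 141 CPM in Pool1 and 105 to 205 CPM in Pool2, with or without the 2 libraries. Thalamus markers summed to 143 to 169 CPM in Vehicle with or without replicate 4, 102 to 231 CPM in Control, 117 to 132 CPM in Pool1 and 142 to 512 CPM in Pool2 without replicate 1 (131 CPM). Vehicle lay above Pool1 in them without overlap, as did Pool2 without replicate 1. Choroid plexus markers summed to 211 to 1248 CPM in Vehicle without replicate 4 (9078 CPM) and 118 to 2308 CPM in Control. They summed to 106 to 298 CPM in Pool1 and 153 to 1505 CPM in Pool2 without replicate 1 (94.2 CPM). Astrocyte markers summed to 4964 to 6137 CPM in Vehicle without replicate 4 and 4869 to 5902 CPM in Control. They summed to 4620 to 5450 CPM in Pool1 and 4665 to 5827 CPM in Pool2 without replicate 1. The sums of astrocyte, endothelial, oligodendrocyte, neuronal and blood markers overlapped between all 4 groups, with or without the 2 libraries. The part of these cells in the levels of the 44 genes in the 4 groups was not tested.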

How the data were processed

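RNA from mouse hippocampus was sequenced by the authors with a stranded poly(A) protocol, as single-end reads in 2 rounds per library. The authors checked reads with FastQC 0.11.5, aligned them with STAR to mm10 and deposited counts of reads per gene (STAR GeneCounts, GENCODE annotation), with genes under a total of 10 removed. Only uniquely aligned reads are counted this way, which lowers genes that share sequence.

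The deposited counts were tested with edgeR 4.0.16 (quasi-likelihood, robust, TMM, 4 groups in 1 fit over 25190 genes, Benjamini-Hochberg over all genes), in R 4.3.3. A gene counted as called where its log2 fold change reached 0.3 in either direction with p under 0.05 before adjustment. The authors also left genes with a mean count under 10 out of their calls, which was tried as an alternative. Levels are CPM with TMM factors. Totals of 20588280 to 25543939 counts make 3 counts equal to 0.117 to 0.146 CPM, a limit that covers counting error only.

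The 44 genes, the roles, the pathway lists and the marker lists were chosen with earlier results of these data known. Values per library are given for 16 genes fixed by role and for the 3 with the smallest p-value in each comparison over 20 libraries, 22 genes in all. Alternatives were DESeq2 1.42.0, its size factors, filters on low counts, fits of only the groups compared, the default spread, a replicate block, the looser motif, and leaving out each library. DESeq2 over 18 libraries, leaving out each further library, and dropping genes with a mean normalized count under 10 after the test were added after the data were seen. The fitting steps were tested on simulated counts. Shared sequence and exon lengths come from a GRCm38 annotation and promoters from RefSeq (GRCm38.p6). The values of 1 gene of the pathway lists are not reported here.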

Additional observations from a re-analysis of the deposited data

Results flagged for a closer look

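Of 92 values examined within groups of 5 libraries, 23 stood apart from the rest of their group by Dixon's criterion, which chance meets in about 1 in 20 groups. Of these, 22 were in Pool2 replicate 1, and since they come from 1 library they are not independent of each other. The summed level of the 44 genes was 1334 CPM there, against 331 CPM in the next Pool2 library. Signalling genes stood at 66.6 CPM (Stat2), 33.1 CPM (Irf9) and 19.2 CPM (Irf7), and RNA-binding and ISG15 genes at 12.4 CPM (Ifit1), 35.6 CPM (Ifit3), 7.54 CPM (Isg15) and 7.68 CPM (Usp18). The OAS genes were at 42.2 CPM (Oasl2) and 4.75 CPM (Oas1a), and other antiviral genes at 6.99 CPM (Rsad2), 11.6 CPM (Zbp1), 24.3 CPM (Bst2), 6.12 CPM (Ddx60) and 10.3 CPM (Samd9l). GTPase genes were at 93.1 CPM against 7.83 CPM for Gbp2, 111 CPM against 4.79 CPM for Igtp, 81.9 CPM against 6.75 CPM for Irgm2 and 69.1 CPM against 4.36 CPM for Iigp1, each against the next Pool2 library. Ifi27 was at 65.4 CPM, Sp100 at 11.7 CPM and Slfn2 at 9.0 CPM. The other value was Zbp1 in Pool1 replicate 4, at 0.733 CPM against 0.224 CPM in the next Pool1 library.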

How the results depend on the processing

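Without Pool2 replicate 1 and Vehicle replicate 4, the members lower than in Vehicle went to 16 in Control, 14 in Pool1 and 1 in Pool2, and the members higher in Pool2 to 0 against Vehicle, 6 against Control and 6 against Pool1, with 1 higher in Pool1 than in Control. DESeq2 on those 18 libraries gave 16, 14, 1, 0, 6, 5 and 2 in the same order, beside 2.74%, 3.39%, 1.18%, 1.13%, 2.67%, 3.15% and 1.06% of all genes. Over 20 libraries DESeq2 gave 5 higher in Pool2 than in Vehicle and 2 lower in Pool1 (all genes 2.22% and 3.7%), with 9 members left without a p-value. Fits of only the groups compared gave 12 lower in Control and 8 in Pool1 against Vehicle (all genes 2.97% and 4.33%), 1 higher in Pool2 than in Vehicle, 19 than in Control and 15 than in Pool1 (2.49%, 3.86% and 4.51%), and 1 higher in Pool1 than in Control (1.6%). Dropping genes with a mean normalized count under 10 after the test, tried after the data were seen, left 9, 34 and 28 members higher in Pool2 than in Vehicle, Control and Pool1 over 20 libraries (2.42%, 5.03% and 5.83% of 16644 genes). Over 18 it gave 15, 14, 1, 0, 5, 6 and 1 in the order above, beside 3.21%, 4.09%, 1.13%, 1.14%, 3.03%, 3.9% and 0.909% of 16605 genes. Apart from the removal of libraries, the cause was not tested.

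Leaving out 1 library at a time, from 20 or 18, gave 0 to 27 members lower in Control and 0 to 26 in Pool1 against Vehicle, 0 to 19 higher and 0 to 5 lower in Pool2 against Vehicle, 0 to 3 higher in Pool1 than in Control, and 4 to 38 and 1 to 35 higher in Pool2 than in Control and Pool1. In the same order, 2.04% to 4.46%, 2.35% to 5.4%, 1.14% to 3.27%, 1.19% to 2.64%, 1.24% to 1.91%, 2.57% to 5.7% and 3.02% to 6.49% of all genes were called.

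Over 18 libraries the sign of the log2 fold change turned in 32 of the 44 members in Pool2 against Vehicle, 6 in Pool2 against Pool1, 3 in Pool2 against Control, 2 in Pool1 against Vehicle and 0 in the other comparisons. For the members described by library and the median of the members, those that turned are given with the lowest and highest log2 fold change on leaving out 1 library where that turned them, and in parentheses the value over 18 libraries where that did. In Control against Vehicle these were Stat2 −0.12 to 0.019, Ifit3b −0.34 to 0.13 and Irgm2 −0.15 to 0.066. In Pool1 against Vehicle these were Stat2 −0.055 to 0.064 (−0.055), Irf9 −0.16 to 0.076 and Slfn2 −0.065 to 0.36. In Pool2 against Vehicle these were the median of the members −0.037 to 0.81 (−0.10), Stat2 −0.024 to 0.37 (−0.082), Irf9 −0.047 to 0.47 (−0.13), Irf7 (−0.060), Ifit1 (−2.8e-05), Ifit3 (−0.072), Ifit3b −0.20 to 0.73 (−0.34), Isg15 (−0.086), Usp18 −0.34 to 0.90 (−0.46), Oasl2 −0.27 to 1.15 (−0.41), Oas1a −0.026 to 1.30 (−0.15), Rsad2 −0.19 to 0.54 (−0.36), Bst2 −0.43 to 0.78 (−0.14), Igtp −0.017 to 3.02 (−0.11) and Ddx60 −0.55 to 0.52 (−0.72). In Pool1 against Control these were Stat2 −0.016 to 0.10, Irf7 −0.37 to 0.036, Ifit1 −0.30 to 0.17, Ifit3b −0.33 to 0.0089, Usp18 −0.64 to 0.17, Oasl2 −0.12 to 0.23, Oas1a −0.098 to 0.68, Rsad2 −0.10 to 0.23, Zbp1 −0.080 to 0.95, Ifi27 −0.17 to 0.087, Samd9l −0.19 to 0.021 and Iigp1 −0.073 to 0.13. In Pool2 against Control these were Ifit3b −0.022 to 0.80 (−0.022) and Ifi27 −0.22 to 0.17 (−0.22). In Pool2 against Pool1 these were Stat2 −0.027 to 0.36 (−0.027), Ifi27 −0.19 to 0.22 (−0.19) and Ddx60 −0.093 to 0.93 (−0.093). With the replicate block Iigp1 turned in Pool1 against Control (−0.011).

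Replicate numbers did not pair the libraries: of 30 same-numbered pairs, deviations correlated at −0.319 to 0.278, and 10 were over 0.1. With the replicate block, 1 member was higher in Pool2 than in Vehicle and 19 than in Pool1 (all genes 2.31% and 5.16%). Genes under about 3 counts per library, such as Oas3, are limited by depth.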
